A study of Homo sapiens with 3 samples.

Results

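The data described here are the baseline expression of mock-transfected A549 cells, read from 1 Agilent array of 1 colour, which was chosen by its label as the array of cells given transfection reagent only. It is 1 of 3 arrays. A549 is an established line from a human lung adenocarcinoma (LUAD), and the cells were grown in RPMI 1640 medium and exposed to Lipofectamine RNAiMAX, with no miRNA precursor and no siRNA. The other arrays held RNA of A549 cells transfected with the same reagent and either *miR-139-5p* or *miR-139-3p* at 10 nM, and all 3 were made from total RNA extracted with Trizol and labelled with Cy3. The line stands for a single tumour and carries no stroma, and the array has no replicate, so no test, p-value or fold change is given and the single array limits the precision of every value.

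A549 is known as a line with inactivated *STK11* and *KEAP1*, and it is widely used as a model of alveolar type 2 epithelium. KEAP1 is the adaptor that sends the transcription factor NRF2 for degradation, and NRF2 drives genes of glutathione and thioredoxin metabolism, NADPH supply, aldo-keto reduction and drug export from promoters and enhancers that hold antioxidant response elements. Alveolar type 2 cells make surfactant under the lung transcription factor NKX2-1, and adenocarcinomas that lose this factor often turn on genes of gut, liver and airway mucus cells.

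The antioxidant response element core TGACNNNGC was searched on both strands of the RefSeq promoter window, from 250 bases before to 50 bases after each gene's start, because the list of NRF2 targets had the largest share of bright genes of all lists read. The promoter table held 17 of the 26 NRF2 target genes measured. The core was present in 6 of these promoters (35.3%), against 3702 of all 27305 promoters (13.6%) and 2264 of 15843 promoters of protein-coding genes (14.3%). The table had no entry for *ABCC1*, *ABCC3*, *AKR1B10*, *ALDH3A1*, *FTH1*, *GSR*, *HMOX1*, *PRDX1* and *SLC7A11*. The list was compiled from general knowledge of NRF2 targets, which are described through these elements. The share of promoters with a core was therefore not independent of how the list was made, and the difference was not tested. A match describes letters in this window and is not a shown binding site. The 8 matches are printed with 10 bases on either side, 5′ to 3′ on the strand that reads the core forward, and the capitals mark the core.
GCLM, GRCh38.p14 chr1:93909446-93909474, plus strand: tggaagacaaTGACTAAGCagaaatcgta
GPX2, GRCh38.p14 chr14:64942849-64942877, plus strand: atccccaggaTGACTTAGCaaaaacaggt
CBR1, GRCh38.p14 chr21:36069855-36069883, minus strand: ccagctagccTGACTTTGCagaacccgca
PGD, GRCh38.p14 chr1:10398853-10398881, minus strand: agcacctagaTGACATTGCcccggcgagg
TXNRD1, GRCh38.p14 chr12:104215670-104215698, plus strand: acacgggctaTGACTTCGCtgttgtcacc
TXNRD1, GRCh38.p14 chr12:104215761-104215789, minus strand: ctgtgggaacTGACGGAGCcgaaggacgc
ME1, GRCh38.p14 chr6:83431170-83431198, minus strand: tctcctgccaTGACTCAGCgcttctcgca
ME1, GRCh38.p14 chr6:83431022-83431050, plus strand: gctgctggggTGACGGTGCtgactgcagc
Counted along the gene to the first base of the match, the core lay 34 bases before the start site in *GCLM*, 122 in *GPX2*, 159 in *CBR1* and 201 in *PGD*. *TXNRD1* held it at 99 and 8 bases before the start site, and *ME1* held it at 137 bases before and, in the second match, inside the 50 bases after the start. The expression values of these 6 genes are given with the other NRF2 targets.

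The signal of each spot is the scanner's background-subtracted intensity, in arbitrary units. Signals of the 57674 probes ranked ran from 0.945 to 112101, with a median of 4.32, and no spot was saturated. A probe counted as detected where Feature Extraction, the scanner software, called it well above background. This held for 27551 probes (47.8%), and no probe with a signal under 2 was detected, a group that made up 41.5% of all probes. The lowest detected signal was 4.82, and the highest signal without detection was 6.21, so the change from one call to the other fell between percentiles 51.1 and 53.6. On 300 probes printed on 10 spots each, the median SD between spots was 0.05 on the log2 scale, and the software's own error model gave 11.7% of the signal for dim genes. This is technical spread within the array. The array passed 9 of 10 quality metrics, and the one out of range was the spike-in detection limit, at -0.06 on a log10 scale against 0.23 and 0.14 on the miRNA arrays.

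**Figure D1:**
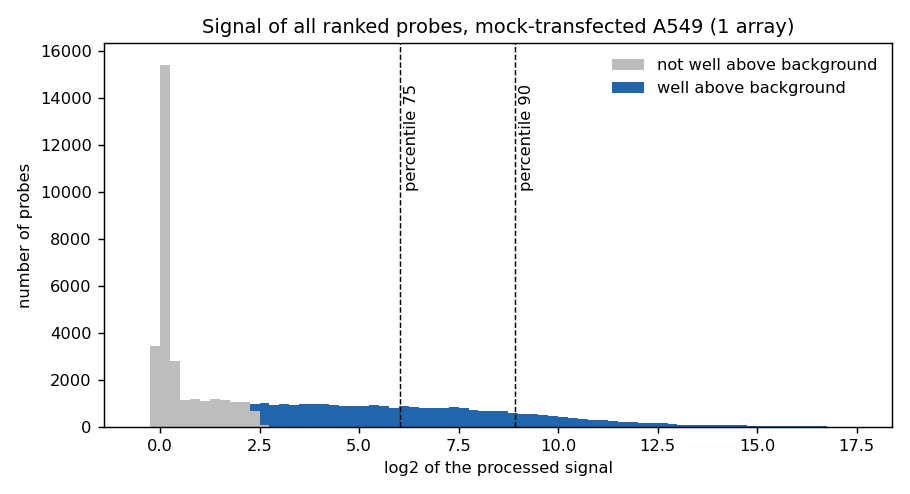
Distribution of log2 processed signal (x axis, arbitrary units) over the 57674 ranked probes of the mock array (y axis, number of probes), split by colour into probes detected and not detected. Probes without detection pile up at the low end, and the median signal is 4.32.

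A gene took the value of its brightest probe. It was called bright at or above percentile 90 of all probes, which was a signal of 487, middle from percentile 75 (a signal of 65.1) to 90, dim where detected below percentile 75, and not detected where none of its probes was. How strongly a probe binds and labels differs between probes, so a percentile orders probe signals and does not order transcript numbers between genes. Of 18086 protein-coding genes, 13151 were detected (72.7%). They divided into 4292 bright genes (23.7%), 5083 middle genes (28.1%) and 3776 dim genes (20.9%), with 4935 not detected (27.3%). The count of each gene list is read against these shares, and a list near them does not stand apart from protein-coding genes as a whole. The median protein-coding gene lay at percentile 76.3. Of 4199 named noncoding genes, 1798 were detected (42.8%), with 183 bright (4.36%), 483 middle (11.5%), 1132 dim (27.0%) and 2401 not detected (57.2%). Among the 5 list genes just inside the bright threshold were *C5* at percentile 90.1, *IL18* at 90.4 and *CAV2* at 90.4, and just outside were *VEGFC* at 89.9, *LAMA3* at 89.8 and *IDH2* at 89.6.

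Calls of bright and middle genes were also made on the miRNA arrays. Of 4201 bright genes with a value on all 3 arrays, 4198 were detected on all 3, as were 4995 of 5002 middle genes and 3139 of 3705 dim genes (84.7%). Of 4806 genes not detected on the mock array, 4132 were not detected on any array (86.0%). As a reference for the low end, 24 genes used in distant tissues, such as eye lens, sperm and muscle, were read the same way. Of these, 13 were detected, 12 of them dim and 1 bright, so dim calls were also made for genes of tissues far from lung. The bright one was *MBP*, a myelin protein gene, at percentile 90.02 on 1 of its 3 probes, while another lay at percentile 57.5 and the last was not detected. Of 10 housekeeping genes, 9 were bright and *TBP*, a basal transcription factor, was middle with a signal of 120.

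Lineage genes were the least detected of the gene families described, and this family pools epithelial lists with lists for cells a culture should lack. Detection ran from 0 of 7 basal and squamous genes to 13 of 14 simple epithelial genes, so the family share depends on the lists chosen. Of 123 lineage genes measured, 78 were detected (63.4%) against 72.7% of all protein-coding genes, and 17 were bright (13.8%) against 23.7%. The median lay at percentile 63.3. Keratins of simple epithelium were bright, while markers of surfactant-making, ciliated, basal and neuroendocrine cells were mostly dim or not detected. Of the 45 not detected, 38 were not detected on the miRNA arrays either.

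Simple epithelial genes were detected in 13 of 14 cases, and 5 were bright. *KRT18*, a keratin of single-layered epithelium, had a signal of 73823 and rank 18 of all probes. Its partner *KRT8* had a signal of 18925, and the glandular keratins *KRT7* and *KRT19* had signals of 46153 and 8322. The 4 keratins lay at percentile 98.9 or higher. Junction genes were in the bright, middle and dim classes. *TJP1*, the tight junction scaffold ZO-1, was bright at percentile 92.1. *CDH1*, which encodes E-cadherin, and *EPCAM*, an epithelial adhesion molecule, were middle at percentiles 88.0 and 84.7. The 1 gene not detected was *ESRP1*, an epithelial splicing regulator, with a signal of 3.19, and its relative *ESRP2* was dim with a signal of 13.5.

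Mesenchymal genes were also detected. Of 15 such genes, 12 were detected (80%, against 72.7% of all protein-coding genes). The bright class held 2 of them (13.3%, against 23.7%). The median of the list lay at percentile 70.8, below the median protein-coding gene at 76.3. *VIM*, the intermediate filament of mesenchymal cells, had a signal of 13846, at percentile 99.3. *S100A4*, a calcium-binding protein of motile cells, had a signal of 11421. The cadherin of mesenchymal and neural cells, *CDH2*, and the E-cadherin repressor *ZEB1* were middle, at percentiles 88.2 and 85.8. *FN1*, which encodes fibronectin, was dim at percentile 66.6. *SNAI2*, a repressor of epithelial genes, and the fibrillar collagen genes *COL3A1* and *COL1A2* were not detected.

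Alveolar type 2 markers, against which the line's common description was checked, were detected in 9 of 14 cases, a share of 64.3% against 72.7% of all protein-coding genes, and 1 was bright. That one was *CTSH*, a lysosomal protease that trims surfactant protein precursors, at percentile 90.7. *ABCA3*, the lipid pump of lamellar bodies, was middle at percentile 86.0. *SFTPA2*, a surfactant collectin gene, was middle at percentile 84.8 on 1 of its 2 probes, and the other probe was not detected. *SFTPA2* shares most of its sequence with *SFTPA1*, so its probes may not separate the copies. *SFTPC*, whose product is made by alveolar type 2 cells, was dim with a signal of 17.3. *NAPSA*, a protease used as a marker of lung adenocarcinoma, was dim with a signal of 17.7. The surfactant genes *SFTPB*, *SFTPA1* and *SFTPD*, the phosphate transporter *SLC34A2* and the protease precursor *PGC* were not detected. *SFTPD* and *PGC* were detected on the *miR-139-3p* array alone, which detected 51.1% of its probes against 47.8% here. Their signals on the mock array, 4.82 and 4.39, lay near the lowest detected signal of 4.82. Of the 14 type 2 markers, 5 were above the dim class.

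Alveolar type 1 markers gave 8 detected genes of 9, with 4 bright. The caveolar coat genes *CAV1* and *CAV2* were bright at percentiles 97.1 and 90.4, and both are used in many cell types beside type 1 cells. The bright call of *CAV2* rested on 1 of 2 probes, and the other lay at percentile 68.1. *EMP2*, a membrane protein of epithelia, was bright at percentile 95.8. *CLIC5*, a chloride channel family member, was bright at percentile 95.6 on 1 of 3 probes, and the remaining probes were not detected. The more restricted markers *AQP5*, a water channel, *HOPX*, a homeodomain cofactor, and *AGER*, an immunoglobulin-like receptor, were dim with signals of 21.6, 19.1 and 9.39. With outlier spots kept, *AGER* was middle and the median of the list moved from percentile 65.3 to 79.4. *PDPN*, a mucin-like surface protein, was not detected.

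Airway secretory markers were detected in 8 of 11 cases (72.7%), the same share as all protein-coding genes, and 2 were bright (18.2%, against 23.7%). *AGR2*, a disulfide isomerase needed for mucin folding, had a signal of 8147, at percentile 98.9. *SCGB3A1*, a secretoglobin of airway secretions, was bright at percentile 96.6. *SPDEF*, a transcription factor of goblet cells, and *MUC5B*, a gel-forming airway mucin, were middle at percentiles 89.0 and 82.4. The club cell secretoglobin *SCGB1A1* was dim with a signal of 28.3. The palate and airway proteins *BPIFA1* and *BPIFB1* and the cytochrome *CYP2F1* were not detected.

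Markers of other cell types were mostly dim or not detected. None of the 7 basal and squamous genes was detected, *TP63*, *KRT5* and *KRT14* among them, and the highest signal in the list was 2.92, at *KRT6A*. With the scanner's looser call of a positive and significant signal, 4 of the 7 were detected, namely *TP63*, *KRT14*, *KRT6A* and *KRT13*, all in the dim class. Of 10 ciliated cell genes, 5 were detected and none was bright, with the ciliary master regulator *FOXJ1* dim at a signal of 11.5 and *TPPP3*, a tubulin-binding protein, middle at 135. Of 9 neuroendocrine genes, the 3 detected were the granule and vesicle genes *CHGA*, *CHGB* and *SYP*, all dim, while the lineage factors *NEUROD1* and *INSM1* were not detected. In the lists for cells a culture should lack, 2 of 6 endothelial genes, 4 of 7 immune genes and 1 of 6 fibroblast genes were detected, none of them bright. The detected fibroblast gene was *THY1*, a surface glycoprotein, which was middle with a signal of 228, at percentile 85.1. Among the defining genes, *PECAM1* of endothelium and *DCN* of fibroblasts were not detected, and *PTPRC*, the pan-leukocyte antigen CD45, had a signal of 10.3 on the highest of 5 probes. *CD14*, a lipopolysaccharide co-receptor, was middle with a signal of 292.

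Among transcription factors of endoderm and epithelium, 13 of 15 were detected and 3 were bright. *NKX2-1* was not detected, with a signal of 0.95. The bright factors included *ELF3*, an epithelial ETS factor, at percentile 96.5, and *FOXA2*, a pioneer factor of foregut and liver, at percentile 96.2. *SOX2*, a factor of proximal airway, was middle at percentile 89.1, as were *CEBPA*, *FOXA1* and *KLF5* at percentiles 85.7, 85.3 and 85.0. The liver and gut factor *HNF4A* and the intestinal factor *CDX2* were dim, at percentiles 54.5 and 60.5. *HNF4G* was not detected.

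**Figure D2:**
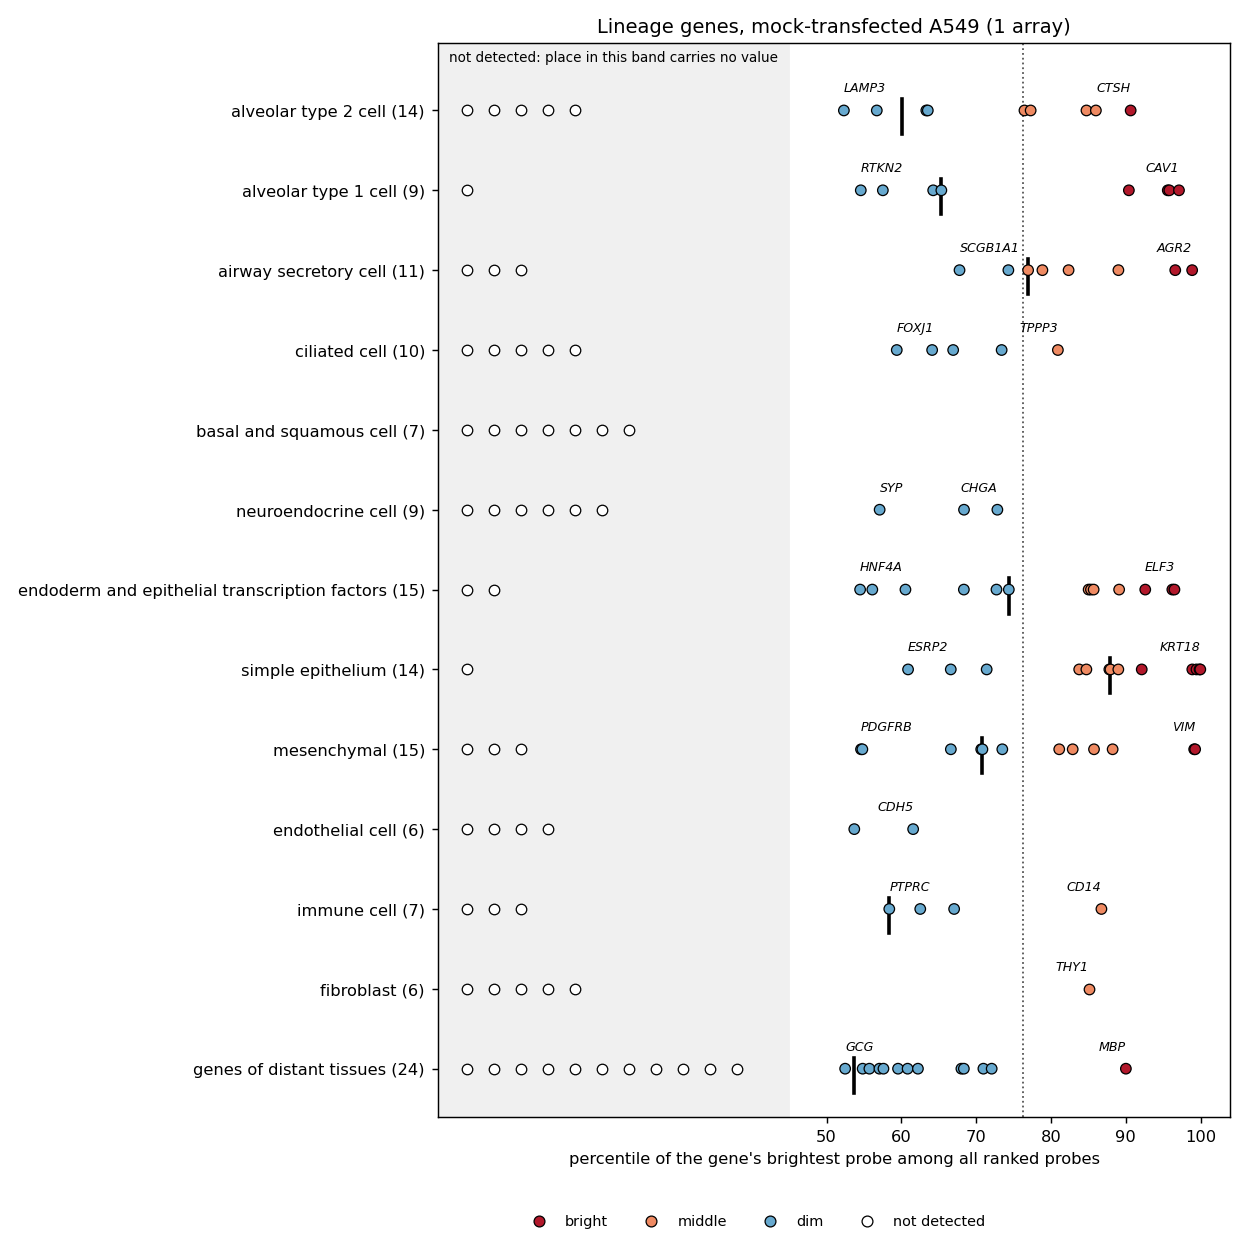
Percentile of each lineage gene's brightest probe among all ranked probes of the mock array (x axis), with 1 row per list and the number of genes measured in brackets. Filled points are bright, middle or dim genes by colour, open points in the grey band are genes not detected and have no position, thick bars are medians of lists with most genes detected, the dotted line is the median protein-coding gene at percentile 76.3, and names mark the ends of the detected range. Simple epithelium sits to the right and basal and squamous genes are all in the grey band.

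Oncogene pathway genes were detected in 117 of 127 cases (92.1%), against 72.7% of all protein-coding genes. They included 54 bright genes (42.5%, against 23.7%), and 24 of these 54 were NRF2 targets. The median lay at percentile 86.1. Of the 10 not detected, 9 were not detected on the miRNA arrays either, and 7 of the 10 were receptor tyrosine kinases.

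The NRF2 list was the brightest of the pathway lists. All 26 measured targets were detected, 24 were bright (92.3%) and the median lay at percentile 98.0. The iron storage genes *FTH1* and *FTL* had signals of 59086 and 39179. The aldo-keto reductase genes *AKR1B10*, *AKR1C3* and *AKR1C1*, whose products reduce aldehydes and ketones, had signals of 53389, 45571 and 25344. Ferritin genes have many processed copies and the *AKR1C* genes are near-identical, so probes may share their signal among copies.

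Redox enzymes and NADPH suppliers formed the next group. *TXN*, the disulfide-reducing protein thioredoxin, had a signal of 36226, and *PRDX1*, a peroxidase that thioredoxin recharges, had 28789. *TXNRD1*, the reductase that reduces thioredoxin and 1 of the genes with a core sequence printed above, was bright at percentile 93.2. *GPX2*, an epithelial glutathione peroxidase with a core at its promoter, was bright at percentile 98.9. The glutathione synthesis subunits *GCLM* and *GCLC* had percentiles of 96.2 and 96.1, and *SLC7A11*, the cystine importer that feeds them, had 96.1. *PGD*, which makes NADPH in the pentose phosphate pathway, was bright at percentile 99.1, and the carbonyl reductase *CBR1* was bright at 96.1 on 1 of 2 probes. The other probe of *CBR1* lay at percentile 58.4, and by the mean over probes the gene was middle at 77.2. *NQO1*, the quinone reductase often taken as the readout of the pathway, had a signal of 786, at percentile 92.7. *ME1*, the cytosolic malic enzyme, with the core in its promoter 2 times, and *OSGIN1*, an oxidative stress-induced growth inhibitor, were the 2 middle members, at percentiles 87.8 and 85.0. The exporters *ABCC1*, *ABCC2* and *ABCC3* were bright at percentiles 93.6, 96.8 and 98.4. By their brightest probes, the 6 genes with a core sequence ranged from percentile 87.8 to 99.1, inside the range of the whole list.

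Receptor tyrosine kinases were mixed. Of 24, 17 were detected (70.8%) and 6 were bright (25.0%), near the 72.7% and 23.7% of all protein-coding genes. *MET*, the hepatocyte growth factor receptor, was bright with a signal of 4331, at percentile 98.0. *AXL*, the GAS6 receptor, was bright at percentile 95.2, and *NTRK3*, *IGF1R*, *ERBB2* and *FGFR1* were bright between percentiles 91.4 and 93.1. For *NTRK3* this rested on 1 of 3 probes, with the others at percentiles 78.7 and 71.2, and for *FGFR1* on 1 of 2, with the other at 83.8. Both were middle by the mean over probes. *EGFR*, a common driver of lung adenocarcinoma, was middle with a signal of 127 on the brightest of 3 probes, and all 3 were detected, down to a signal of 17.1. By the mean over probes it was dim. The fusion-driver kinases *ALK* and *ROS1* were not detected, nor were *KIT*, *PDGFRA*, *ERBB4* and *NTRK2*. *RET* was dim with a signal of 12.7.

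Of 7 ligands of the EGFR family, 6 were detected. *AREG*, which encodes amphiregulin, and *NRG1*, which encodes neuregulin, were bright at percentiles 93.8 and 92.1. *EREG* and *TGFA* were middle at percentiles 85.1 and 79.1, *BTC* and *HBEGF* were dim, and *EGF* itself was not detected. The second probe of *TGFA* lay at percentile 45.6, and the gene was dim by the mean over probes.

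Downstream of the receptors, all 14 genes of the RAS and MAP kinase cascade were detected and 5 were bright. *HRAS* was bright at percentile 93.0 and *NRAS* was middle at 84.6. The kinases *MAP2K1* and *MAP2K2* were bright at percentiles 92.1 and 92.2, and the adaptor *GRB2* was bright at 90.7. *BRAF* and the exchange factor *SOS1* were dim. All 14 genes read as output of the cascade were detected, and 3 were bright (21.4%, against 23.7% of all protein-coding genes). These were *IER3*, an immediate early gene, at percentile 97.1, *DUSP4*, a nuclear MAP kinase phosphatase, at 95.5, and *CCND1*, the cyclin of early G1, at 90.8. *DUSP6*, the ERK phosphatase, was middle at percentile 86.0, and the immediate early factor *EGR1* was dim at 63.4.

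The PI3K and mTOR list had all 13 genes detected and 3 bright (23.1%, near the 23.7% of all protein-coding genes). The bright genes were the kinases *AKT2* and *AKT1* at percentiles 94.97 and 93.5, and *RPTOR*, the substrate adaptor of mTOR complex 1, at 94.0. *AKT2* was bright on 1 of 3 probes, with the others at percentiles 81.5 and 80.2, and was middle by the mean over probes. *PIK3CA*, a catalytic subunit of PI3K, was dim at percentile 70.4. In the YAP and TEAD list all 10 genes were detected and 6 were bright, among them *TEAD1*, a DNA-binding partner of YAP, with a signal of 1265, and *CCN1*, a secreted target, with 1162. *CCN2* and *ANKRD1*, also common targets, were dim at percentiles 73.7 and 55.4. *MYC* was bright at percentile 94.95 and its partner *MAX* at 94.8, *TERT*, the telomerase enzyme, was middle with a signal of 113, and *MYCN* was not detected. *MAX* was bright on 1 of 3 probes, with the others at percentiles 75.9 and 65.7, and was middle by the mean over probes.

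Tumour suppressor genes were detected in 13 of 14 cases, and 4 were bright (28.6%, against 23.7% of all protein-coding genes). Those were *RBM10*, a splicing regulator, at percentile 95.4, *KEAP1* at 91.5, the kinase gene *STK11* at 91.5 and *SMARCA4*, a chromatin remodelling ATPase, at 90.4. A transcript signal does not show whether a gene encodes a working protein. *CDKN1A*, a cyclin-dependent kinase inhibitor, was dim at percentile 73.2. For *CDKN2A*, which encodes the cell cycle inhibitors p16 and p14ARF and is known to be deleted in this line, 1 probe was middle with a signal of 307 and the other was not detected with a signal of 0.998. Its neighbour *CDKN2B* was not detected, with a signal of 1.02.

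**Figure D3:**
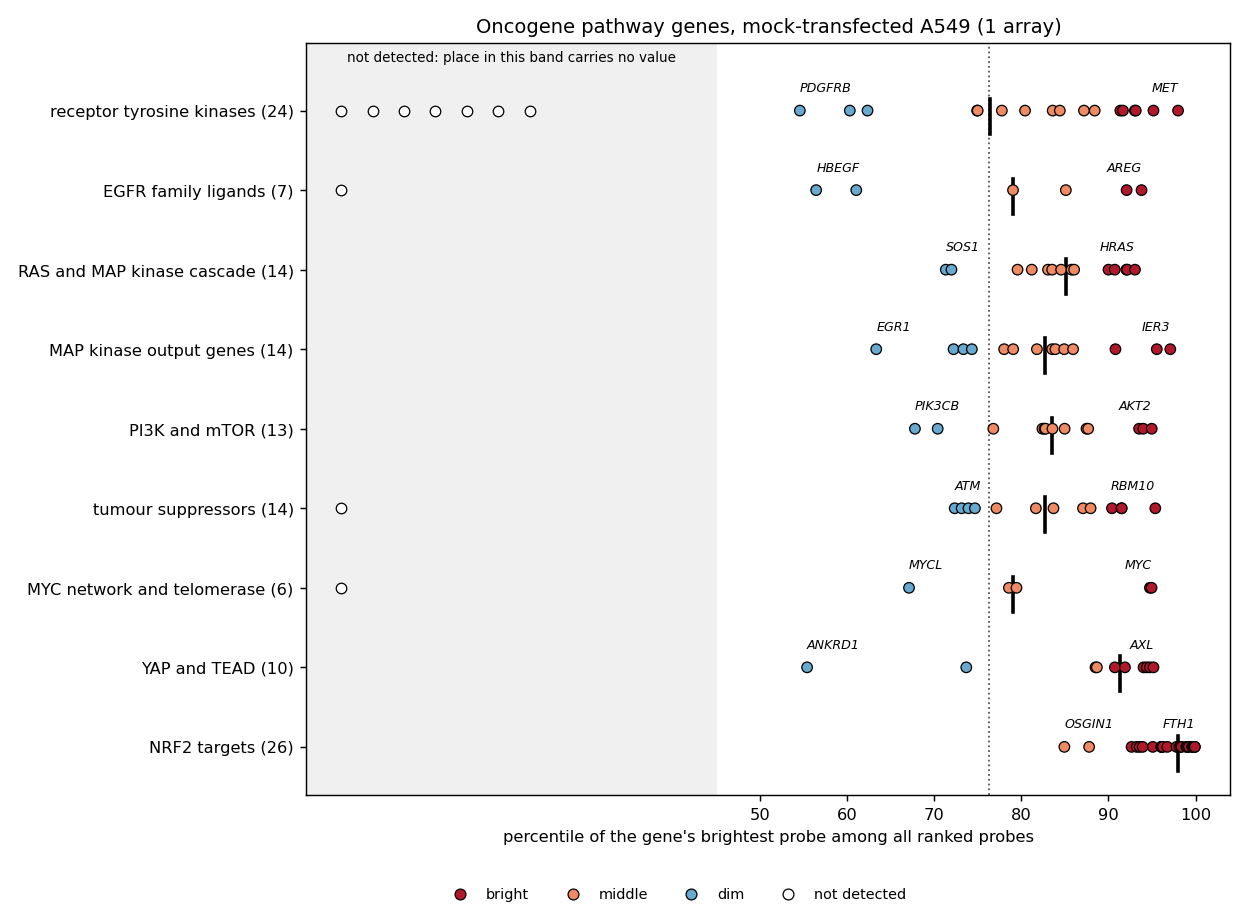
Percentile of each oncogene pathway gene's brightest probe among all ranked probes of the mock array (x axis), with 1 row per list and the number of genes measured in brackets. Filled points are bright, middle or dim genes by colour, open points in the grey band are genes not detected and have no position, thick bars are medians of lists with most genes detected, and the dotted line is the median protein-coding gene at percentile 76.3. All 26 NRF2 targets lie to the right of that line, and 7 receptor tyrosine kinases are in the grey band.

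Metabolic genes were the brightest family. Of 106 measured, 97 were detected (91.5%, against 72.7%), 65 were bright (61.3%, against 23.7%), and the median lay at percentile 93.6. The 9 not detected fell in gluconeogenesis, glycogen synthesis, glutamine use and drug metabolism, and 5 of them were not detected on the miRNA arrays either.

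Glycolysis and lactate export had all 19 genes detected and 12 bright, with a median at percentile 98.6. *GAPDH* had a signal of 36635, the pyruvate kinase gene *PKM* 23020, and the lactate dehydrogenase subunits *LDHA* and *LDHB* 21177 and 37276. Isoforms divided between classes. *SLC2A1*, the glucose transporter GLUT1, was bright at percentile 94.9 and *SLC2A3* was dim at 68.2. The hexokinase *HK1* was middle at percentile 89.1 and *HK2* was dim at 66.9. Among lactate transporters, *SLC16A3*, which serves lactate export, was bright at percentile 98.2 and *SLC16A1* was dim at 74.8. The enzymes proper to gluconeogenesis, *PCK1*, *FBP1* and *G6PC1*, were not detected, while the mitochondrial *PCK2* was middle at percentile 84.2 on 1 of 2 probes and dim by the mean over both. In glycogen metabolism, the phosphorylases *PYGB* and *PYGL* and the synthase *GYS1* were bright, and the liver synthase *GYS2* was not detected.

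The pentose phosphate pathway had all 7 genes detected and 5 bright, with a median at percentile 98.0. *TKT*, the transketolase of its non-oxidative branch, had a signal of 37894, and *TALDO1*, the transaldolase, had 11970. The transketolase-like gene *TKTL1* was dim, with a signal of 10.7. In the glycolysis list, the phosphofructokinase *PFKM* was not counted, because its only spot was marked an outlier on this array. With outlier spots kept it had a signal of 1403, at percentile 95.2.

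Citric acid cycle genes were all detected, 14 of 20 bright, and the median lay at percentile 94.5. The list also counts *MDH1*, the malate dehydrogenase of the cytosol and not of the mitochondrial cycle, with a signal of 9551. *CS*, which encodes citrate synthase, had a signal of 6821. *OGDH*, a subunit of the 2-oxoglutarate dehydrogenase complex, was the single dim gene, with a signal of 37.4. The serine and one-carbon list had all 11 genes detected and 8 bright. *TYMS*, the thymidylate synthase, lay at percentile 98.2 and *PSAT1*, a serine synthesis enzyme, at 97.8. *ASNS*, the asparagine synthetase, which is counted in this list but makes asparagine, lay at percentile 97.9. Among 10 genes of glutamine use and amino acid transport, 9 were detected and 7 were bright. *SLC7A5*, the large neutral amino acid transporter, had a signal of 6680. The glutaminase gene *GLS2* was not detected on this array. Fatty acid and sterol synthesis had all 13 genes detected, 9 bright and none dim, with *SREBF1*, a regulator of lipid synthesis, at percentile 98.8 and *FASN*, the fatty acid synthase, at 97.3. *SREBF1* was bright on 1 of 2 probes, with the other at percentile 78.1, and was middle by the mean over probes.

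Xenobiotic metabolism was a divided list, with 14 of 18 genes detected and 7 bright. *GSTP1*, a glutathione transferase, had a signal of 40719. The aldehyde dehydrogenases *ALDH1A1*, *ALDH3A1* and *ALDH3A2* had signals of 36438, 12750 and 3600. *CYP24A1*, which inactivates vitamin D, and *CYP1B1*, an aryl hydrocarbon receptor target, were the bright cytochromes of this list, at percentiles 95.5 and 91.9. The other probe of *CYP1B1* lay at percentile 87.2, and the gene was middle by the mean over probes. *CYP1A1*, also a target of that receptor, was not detected, nor were the liver drug-metabolising genes *CYP3A4*, *CYP2E1* and *NAT2*. *CYP3A5* was dim with a signal of 63.0. The cytochrome and transferase families have close paralogs, and a probe may read more than 1 member.

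**Figure D4:**
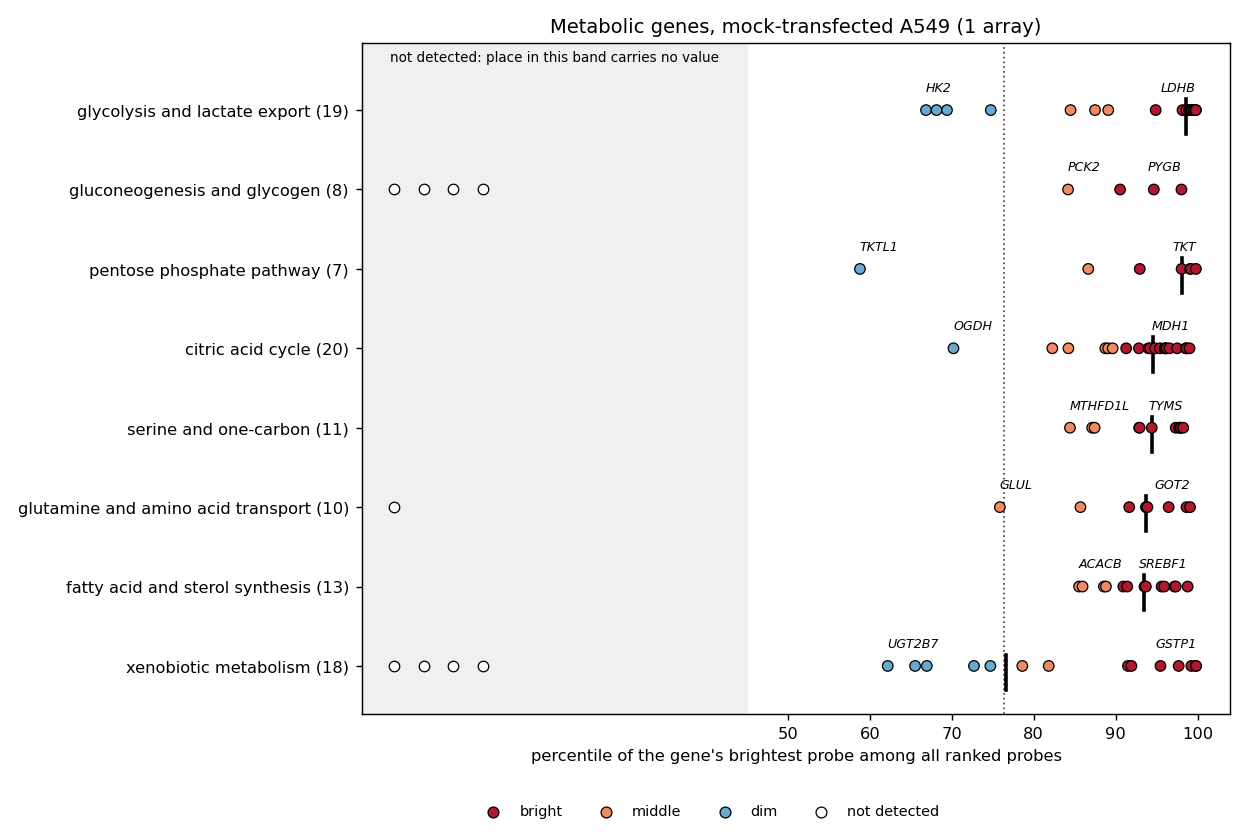
Percentile of each metabolic gene's brightest probe among all ranked probes of the mock array (x axis), with 1 row per list and the number of genes measured in brackets. Filled points are bright, middle or dim genes by colour, open points in the grey band are genes not detected and have no position, thick bars are medians of lists with most genes detected, and the dotted line is the median protein-coding gene at percentile 76.3. Glycolysis and the pentose phosphate pathway have medians at percentiles 98.6 and 98.0.

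Genes of secreted proteins came close to the share of all protein-coding genes. Of 119 measured, 89 were detected (74.8%, against 72.7%) and 36 were bright (30.3%, against 23.7%), with a median at percentile 78.2. Of the 30 not detected, 23 were not detected on the miRNA arrays either.

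Plasma protein genes usually made by liver were detected in 17 of 25 cases (68.0%), and 4 were bright (16.0%). Both shares were below the 72.7% and 23.7% of all protein-coding genes. *FGL1*, a fibrinogen-like protein, had a signal of 1379, at percentile 95.1. The chain genes of fibrinogen itself were *FGG*, bright at percentile 93.2, and *FGB* and *FGA*, middle at 86.8 and 86.0. The apolipoproteins *APOE* and *APOH* were bright at percentiles 93.1 and 92.5. The calls within the list were mixed, and *ALB*, which encodes albumin, and the lipoprotein genes *APOB*, *APOA2* and *APOC3* were not detected, nor were *HP*, *HPX*, *F10* and *SERPINC1*. *SERPINA1*, the lung-protecting antitrypsin, was dim with a signal of 21.3.

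Complement genes were detected in 11 of 12 cases, and 5 were bright. *CFD*, the protease factor D of the alternative pathway, was bright at percentile 96.8, and the C1 proteases *C1S* and *C1R* at 95.1 and 94.6. Each of these proteases was bright on 1 of 2 probes, with the other at percentile 68.9 for *C1S* and 83.6 for *C1R*, and both were middle by the mean over probes. *C3*, the central component, lay just under the threshold at percentile 89.4. *C4B* was dim and *C4A* was not detected, and their sequences are near-identical.

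Of 24 cytokine and chemokine genes, 14 were detected (58.3%) and 5 were bright (20.8%). Both shares were below the 72.7% and 23.7% of all protein-coding genes. *GDF15*, a stress-induced cytokine, had a signal of 8590, at percentile 98.9. *CXCL5*, a neutrophil chemoattractant, was bright at percentile 96.8, and its relatives *CXCL2* and *CXCL1* were middle at 88.8 and 88.0. *LIF*, an IL-6 family cytokine, was bright at percentile 93.8, as was *TGFB1*, the growth-suppressing and matrix-inducing factor, at 91.6. *LIF* was bright on 1 of 2 probes, with the other at percentile 62.2, and was middle by the mean over probes. *CXCL8*, which encodes interleukin 8, was not detected on this array, with a signal of 3.22, and was detected on the *miR-139-3p* array alone. The *miR-139-3p* array detected a larger share of its probes, 51.1% against 47.8% on the mock array. *IL6*, *TNF*, *IL1A*, *IL1B*, *CSF2*, *CSF3*, *CCL5*, *CCL20* and *CXCL10* were also not detected, on any array. The angiogenic factor *VEGFA* was middle with a signal of 101.

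Matrix genes were detected in 14 of 15 cases, with 7 bright. The basement membrane genes *LAMB1* and *COL4A2* were bright at percentiles 98.2 and 97.3, and *SPP1*, the secreted phosphoprotein osteopontin, at 96.0. *TNC*, which encodes tenascin C, was not detected on this array. Of 15 proteases and inhibitors, 11 were detected (73.3%, against 72.7% of all protein-coding genes) and 5 were bright (33.3%, against 23.7%). The bright genes were *TIMP2* and *TIMP1*, inhibitors of metalloproteinases, at percentiles 98.4 and 95.1, the urokinase gene *PLAU* at 97.2, the protease inhibitor *TFPI2* at 95.9 and matrilysin, *MMP7*, at 94.6. The other probe of *PLAU* lay at percentile 80.7, and the gene was middle by the mean over probes. The collagenase *MMP1*, the gelatinase *MMP2*, *TIMP3* and *SPINK1* were not detected.

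Growth factor antagonists and binding proteins gave 14 detected genes of 18, with 7 bright. *DKK1*, a secreted Wnt inhibitor, had a signal of 2982, at percentile 97.3. *INHBB*, a subunit of activin B, was bright at percentile 97.1, while *INHBA*, the subunit of activin A, was not detected. Binding proteins of insulin-like growth factor divided, with *IGFBP4*, *IGFBP6*, *IGFBP2*, *IGFBP3* and *IGFBP7* bright, *IGFBP1* middle and *IGFBP5* not detected. *BMP2* and *LEFTY2* were not detected either.

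Peptide hormone genes were detected in 8 of 10 cases, and 3 were bright. *EDN1*, which encodes the vasoconstrictor endothelin 1, had a signal of 2806. *ADM*, which encodes the vasodilator adrenomedullin, had a signal of 2127, and *NTS*, which encodes neurotensin, had 1165. Each lay at percentile 94.4 or higher. *GAL*, *TFF1* and *PTHLH* were middle, *NMU* and *GCG* were dim, and *INS* and *CGA* were not detected.

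**Figure D5:**
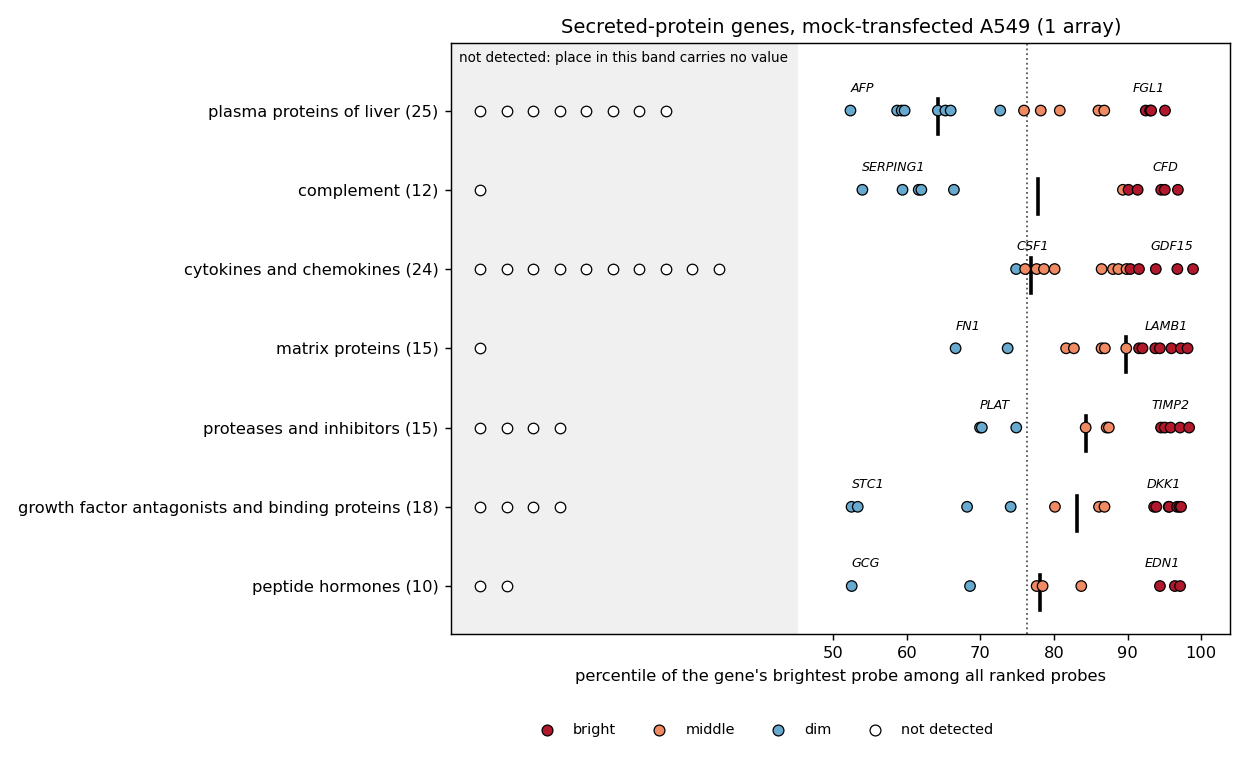
Percentile of each secreted-protein gene's brightest probe among all ranked probes of the mock array (x axis), with 1 row per list and the number of genes measured in brackets. Filled points are bright, middle or dim genes by colour, open points in the grey band are genes not detected and have no position, thick bars are medians of lists with most genes detected, and the dotted line is the median protein-coding gene at percentile 76.3. Each list spans bright to undetected genes, with 10 cytokine and chemokine genes in the grey band.

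The 20 brightest protein-coding genes held 7 ribosomal protein genes, led by *RPS2* at a signal of 100840, and the cytoskeletal genes *ACTB*, *KRT18* and *KRT81*. *KRT81* is a hair keratin with near-identical relatives, read by 1 probe with a signal of 91663. Of these 20 genes, 14 had several probes, and in 9 of them the brightest and the dimmest probe differed by more than 4 on the log2 scale. Over all 5238 protein-coding genes with several probes, 1100 had so wide a gap (21.0%). *FUT6*, a fucosyltransferase, had 1 probe with a signal of 64782 and another that was not detected. *PTK6*, a kinase of epithelial cells, had signals of 72549 and 19.9, and *GPR155*, an integral membrane protein, had 86293 on 1 probe and lay at percentiles 56.3 and 56.2 on the others. *ZNF865*, *TONSL*, *EXOSC2*, *TSR1* and *AS3MT* had the same kind of gap. For these genes the place among the brightest rests on 1 probe. *CYP2W1*, a cytochrome outside the xenobiotic list, and *SLC66A1*, a lysosomal amino acid transporter, had 1 probe each, with signals of 62257 and 85069.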

How the data were processed

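Total RNA of A549 cells was amplified with the Agilent Low Input Quick Amp kit, labelled with Cy3 and hybridised to Agilent arrays of 1 colour, 1 array per condition. For each spot, the authors deposited an intensity read by Agilent Feature Extraction 12.1.1.1, with background subtracted and small signals replaced by a positive value, and with no normalization between arrays. A second deposited table holds log2 values. Setting them against quantile-normalized scanner signals gave a median difference of 0.003 on the mock array, and they served as an alternative.

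On the mock array, control spots and 614 outlier spots were left out, which removed 527 of 58201 probes. Spots of one probe were averaged on the log2 scale, probes were ranked, and a probe was detected where at least 50% of its spots were well above background by the software's call. Ranking within 1 array needs no scaling between arrays. RefSeq accessions named 30800 probes as 22285 genes, 4199 of them noncoding, through assembly GRCh38.p14. The 26874 unnamed probes, of which 28.4% were detected, stayed in the ranking. Of 512 listed genes, 499 had a value, and the 13 others were not analysed here with the main settings. Some listed genes are counted and not reported by name.

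The lists were compiled from general knowledge, and they and the members were chosen with earlier results of these data known. Named genes are list members, with the 3 highest and those not detected preferred, and the 20 brightest coding and 10 brightest noncoding genes. The alternatives changed the background correction, the detection call, outlier spots, the probe taken for a gene, the probes ranked, the bright threshold or the value table. A simulated array drawn from the mock signals was used to check the steps. With 22285 genes run, the class of 200 of 200 planted genes was recovered. The planted genes were read by a single probe, lay far from the class thresholds and had detection calls set from the simulated signal. The check therefore does not cover genes near a threshold or genes whose probes differ. Normexp, with an offset of 50, was run in limma 3.58.1 under R 4.3.3. All other steps ran in Python 3.11.15 (numpy 2.4.6, pandas 2.3.3, matplotlib 3.10.9).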

Additional observations from a re-analysis of the deposited data

How the results depend on the processing

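Over 9 alternatives, 47 of 59 counts reported for the families and for all genes stayed within 1.5 times the main value. The 12 others followed from how many probes or what threshold the call was built on. With bright set at percentile 95, 2084 coding genes were bright in place of 4292, with 25 oncogene pathway genes in place of 54, 43 metabolic genes in place of 65 and 19 secreted-protein genes in place of 36. With bright set at percentile 75, the counts were 9375 coding, 41 lineage, 96 oncogene pathway and 64 secreted-protein genes, the lineage count being 17 at the main threshold. With only coding probes ranked, 2200 coding, 28 oncogene pathway and 19 secreted-protein genes were bright. This setting changed the class of 156 of the 499 list genes, the most among the settings that kept the class thresholds, with 67 losing the bright call, and the median of the alveolar type 2 list went from percentile 60.03 to 35.41. With the scanner's call of a positive and significant signal for detection, 20 of the 24 genes of distant tissues were detected in place of 13, and 52 list genes changed class, basal and squamous genes going from 0 to 4 of 7 detected. Of 342 counts and medians for single lists, 300 stayed and 42 moved. A count stayed if within 1.5 times the main value, and a median if within 6.89 percentile points of it. Taking the mean over the probes of a gene changed the class of 37 list genes, 19 of them losing the bright call, and left 3414 coding genes bright. Normexp changed 9, with *CAV2*, *SMARCA4* and *IL18* going from bright to middle and *SLC16A1* from dim to middle among those named. The deposited log2 values changed none, and keeping outlier spots changed 1, *AGER*.

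No paired analysis was possible because each condition had 1 array and no test was made. Signal over background limits the low end, where dim and undetected genes meet between signals of 4.82 and 6.21, and 21.0% of coding genes with several probes had probes more than 4 apart on the log2 scale.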

Other observations

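The 10 named noncoding genes with the brightest probes on the mock array included small RNAs of the snaR family, which are made by RNA polymerase III. *SNAR-A3* held rank 1 of all probes with a signal of 112101, and *SNAR-B2*, *SNAR-D*, *SNAR-H* and *SNAR-G2* held ranks 9, 22, 50 and 60. The members of this family are near-identical, so their probes may read the same transcripts. Whether the signals of the probes in this paragraph came from the named RNAs was not tested. The ribosomal RNA gene *RNA28SN5* held rank 3, the signal recognition particle RNA *RN7SL1* rank 135 and the minor spliceosome RNA *RNU4ATAC* rank 68. The other 2 of the 10 brightest were *FAM74A4*, a long noncoding RNA gene, at rank 24, and the pseudogene *RRP7BP* at rank 97, whose other probe lay at percentile 84.2. Each of the remaining 9 was read by 1 probe.

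Several probes of 1 gene did not always share a call. Across the 3622 coding genes with several detected probes, the SD between a gene's detected probes had a median of 6.89 percentile points. Probes that were not detected are left out of this SD. Of 1476 bright coding genes with several probes, 82 (5.56%) had at least 1 probe that was not detected, as *CLIC5* did among the alveolar type 1 markers.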
